A study of Mus musculus with 7 samples.

Results

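The 10 genes described here act on the G1 switch, the point at which a cell either enters another division or leaves the cycle: the CIP/KIP inhibitors *Cdkn1a* (p21), *Cdkn1b* (p27) and *Cdkn1c* (p57), the INK4 family genes *Cdkn2a* (p16 and p19ARF), *Cdkn2c* (p18) and *Cdkn2d* (p19), the D cyclins *Ccnd1*, *Ccnd2* and *Ccnd3*, and the retinoblastoma gene *Rb1*. They were chosen by gene symbol, are 10 of the 56748 genes listed, and all 10 had enough counts to be tested among 9489 genes. RNA came from muscle stem cells (MuSCs) of hind limb muscle of adult mice, either WT (3 libraries) or homozygous for *Jag2sm* (4 libraries), a hypomorphic missense allele of the NOTCH ligand gene *Jag2* that mice carry in every cell. The labels give the genotype of these 4 samples as Jag2-/-, although the allele still makes transcript. In both groups integrin alpha 7-positive cells were selected with magnetic beads after CD31-, CD45- and Sca1-positive cells were removed. The paper's cell culture methods keep MuSCs in growth medium with 20% FBS and bFGF. Its sequencing methods do not say whether, or for how long, the sequenced cells were cultured. Each RNA sample gave 1 long-read direct cDNA library, and the labels give WT and *Jag2sm* libraries 1, 2 and 3 a shared batch number and *Jag2sm* library 4 its own, without saying what the batch was. The labels do not say whether libraries came from separate animals, so p-values measure the spread between these RNA samples. An exact age and strain were not given in the labels.

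D cyclins bind CDK4 and CDK6 and start the phosphorylation of RB1, which then releases E2F factors to switch on genes of DNA synthesis. INK4 proteins block CDK4 and CDK6, CIP/KIP proteins chiefly block CDK2 complexes, and p19ARF, made from another reading frame of *Cdkn2a*, stabilizes p53. In myoblasts, p21, p57, cyclin D3 and RB1 are known to accumulate when cells leave the cycle to form myotubes, whereas cyclin D1 is high in dividing myoblasts.

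The sequences upstream of members whose level differed are shown because *Cdkn1a*, *Cdkn2a* and *Ccnd3* are each read from more than 1 start site, and the counts used here add up all transcripts of a gene. Of the 10 genes, 6 matched the RefSeq promoter table (GRCm38.p6), and *Cdkn1c*, *Ccnd1*, *Ccnd2* and *Rb1* did not. The 250 bases before each start were searched on both strands for the E-box CAGCTG bound by myogenic factors, the core TGGGAA bound by the NOTCH effector RBPJ, the E2F sites TTTCCCGC and TTTGGCGC, and the p53 half-site motif. Each sequence was found once in GRCm39, whose coordinates are given, and bases in annotated exons of protein-coding genes were left out. Capitals mark matches.
Cdkn1a first start, chr17:29309703-29309935, + strand: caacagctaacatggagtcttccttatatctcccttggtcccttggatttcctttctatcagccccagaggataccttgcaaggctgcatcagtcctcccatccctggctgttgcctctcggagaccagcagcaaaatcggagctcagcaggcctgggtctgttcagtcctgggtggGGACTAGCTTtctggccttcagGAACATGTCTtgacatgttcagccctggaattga
Cdkn1a second start, chr17:29312493-29312737, + strand: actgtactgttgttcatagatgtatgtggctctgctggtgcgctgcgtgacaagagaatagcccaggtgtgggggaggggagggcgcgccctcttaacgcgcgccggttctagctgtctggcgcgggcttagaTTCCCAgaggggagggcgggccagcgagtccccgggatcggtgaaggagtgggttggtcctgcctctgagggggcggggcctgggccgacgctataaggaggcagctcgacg
Cdkn2a first start, chr4:89212891-89213106, - strand: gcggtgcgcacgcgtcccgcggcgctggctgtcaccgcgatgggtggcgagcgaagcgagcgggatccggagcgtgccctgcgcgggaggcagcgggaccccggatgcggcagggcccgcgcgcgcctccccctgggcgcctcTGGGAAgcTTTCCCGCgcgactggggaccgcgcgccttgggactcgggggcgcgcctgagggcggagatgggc
Cdkn2a second start, chr4:89200430-89200679, - strand: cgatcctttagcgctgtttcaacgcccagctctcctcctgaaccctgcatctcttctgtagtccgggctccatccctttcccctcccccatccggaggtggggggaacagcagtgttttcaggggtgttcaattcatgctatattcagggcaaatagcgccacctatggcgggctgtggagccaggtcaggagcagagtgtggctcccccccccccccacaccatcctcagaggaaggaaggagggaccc
Ccnd3 second start, chr17:47904142-47904348, + strand: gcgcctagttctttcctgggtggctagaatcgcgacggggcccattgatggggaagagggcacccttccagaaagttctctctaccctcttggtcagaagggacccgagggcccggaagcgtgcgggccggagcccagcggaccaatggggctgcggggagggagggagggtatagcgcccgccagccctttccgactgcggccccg
At the first *Cdkn1a* start both matches are p53 half-sites. A single half-site or more was found in 7.13% of all 32851 promoters, and promoters with a pair were not counted. At its second start the match is the RBPJ core on the opposite strand, found in 21.6%. The start of *Cdkn2a* that gives p19ARF, listed first, held the RBPJ core and, a few bases downstream, an E2F site, of a kind found in 1.3% of promoters. The start that gives p16, listed second, and the second start of *Ccnd3* held none of these letters in the window. The E-box, found in 13% of promoters, was in none of the windows of these 3 genes. These matches are descriptions of the sequence and were not tested as binding sites.

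The total on genes ran from 187834 reads (WT library 1) to 1937581 (*Jag2sm* library 3). WT library 1 also stood apart in that the aligned reads hitting no annotated gene made up 45.1%, where the other 6 libraries had 20.8% to 25.7%. A count of 3 equals 16.9 CPM there (CPM being reads scaled to a common library size with TMM normalization) and 1.45 to 4.16 CPM elsewhere. Values of the 10 genes are therefore given with and without WT library 1. *Jag2* itself was at 79.0, 112.0 and 113.9 CPM in WT libraries 1, 2 and 3 and at 41.6, 77.4, 70.8 and 76.1 CPM in *Jag2sm* libraries 1 to 4, which did not overlap but did not pass the test across all genes (log2 fold change -0.64, adjusted p = 0.166 by edgeR's quasi-likelihood test). The sorted cells carried the myoblast markers *Myod1* (mean 765 CPM in WT) and *Des*, while *Msc* had no count in any library.

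Of the 10 genes, *Cdkn2a* rose and *Cdkn1a*, *Ccnd3* and *Rb1* fell in *Jag2sm* MuSCs at an adjusted p under 0.05. In all genes tested, 1.42% rose and 4.84% fell. Without WT library 1, only *Cdkn1a* and *Ccnd3* passed, with 1.11% of genes called higher and 4.69% lower. DESeq2 called the same 4 genes and *Ccnd1* higher, against a background of 1.66% higher and 4.69% lower. With the shared batch number as a block, 1.23% of genes were called higher and 4.72% lower, and of the 10 genes *Cdkn2a* rose and *Cdkn1c* and *Rb1* fell, so that *Cdkn1a* and *Ccnd3* lost their call.

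*Cdkn1a*, the p53-inducible inhibitor p21, had the highest mean level of the 10 genes in both genotypes, although *Ccnd2* was above it in *Jag2sm* library 3. It lies at chr17:29309936-29319701 (+ strand, GRCm39). The gene was counted at 1174, 782 and 825 CPM in WT libraries 1, 2 and 3. In *Jag2sm* libraries 1 to 4 it was at 508, 390, 310 and 521 CPM. Every *Jag2sm* library lay below every WT library, and WT library 1 was the highest of all. The mean fell from 927 ± 215 (SD, n = 3) to 432 ± 101 CPM (SD, n = 4), a log2 fold change of -1.09 ± 0.27 (SE; adjusted p = 0.0369, edgeR). Without WT library 1 the change was smaller but still passed (-0.90, adjusted p = 0.0442, edgeR), whereas leaving out any one of the other 6 libraries ended the call (adjusted p = 0.0519 to 0.134). With the replicate block it was -1.21 and did not pass (adjusted p = 0.0676, edgeR), although the level was lower in 3 of 3 batches, by 1.00 to 1.41 on the log2 scale. Scaled by library size alone, or with a minimum of 10 counts in every library, the fall did not pass either (adjusted p = 0.0632 and 0.0584, edgeR). Exons of the antisense genes *Dino* and *Gm64878* overlap those of *Cdkn1a*, but *Dino* had at most 2 counts in any library.

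*Cdkn1b*, which encodes p27 and lies at chr6:134897364-134902476 (+ strand), was at 50.8, 39.5 and 55.1 CPM in WT and at 27.7, 29.9, 38.8 and 32.0 CPM in *Jag2sm* MuSCs. The groups did not overlap, though the highest *Jag2sm* library came within 1 CPM of the lowest WT library, and the difference did not pass the test (log2 fold change -0.55 ± 0.24 (SE), adjusted p = 0.223, edgeR; -0.53 without WT library 1, adjusted p = 0.234). *Cdkn1c*, the imprinted gene of p57, at chr7:143012069-143014806 (− strand), varied most within a genotype relative to its mean level. In WT it had 3, 123 and 174 reads, which make 16.9, 78.3 and 162 CPM. In *Jag2sm* libraries it had 6, 37, 9 and 96 reads, or 8.31, 25.1, 4.36 and 76.9 CPM. *Jag2sm* library 4 thus came close to WT library 2, and WT library 1 lay among the low *Jag2sm* libraries. The log2 fold change of -1.75 ± 0.77 (SE) did not pass (adjusted p = 0.236, edgeR), nor did -2.06 without WT library 1 (adjusted p = 0.177). It passed with the replicate block (-2.87, adjusted p = 0.0413) and when *Jag2sm* library 4, the one without a batch partner, was left out (-2.91, adjusted p = 0.0354). The fall was smaller without WT library 3 (-1.02, adjusted p = 0.623, edgeR) and without *Jag2sm* library 3 (-1.35, adjusted p = 0.295, edgeR).

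The 3 CIP/KIP genes were all lower in *Jag2sm* within each of the 3 shared batches, as were 21.2% of all genes tested, although *Cdkn1a* alone of the 3 passed the test. Their summed level was 1241, 899 and 1042 CPM in WT and 544, 445, 353 and 630 CPM in *Jag2sm* MuSCs. *Cdkn1a* gave 86.9% ± 7.71 (SD, n = 3) of CIP/KIP counts in WT and 87.9% ± 4.36 (SD, n = 4) in *Jag2sm*, a difference of 1.02 points (exact two-sided permutation test, p = 0.83). That difference ran from -2.84 to 4.87 points with 1 library left out. The shares of *Cdkn1b* (4.59% ± 0.623 in WT and 6.97% ± 2.78 in *Jag2sm*, SD) and *Cdkn1c* (8.55% ± 7.12 and 5.15% ± 5.11, SD) were not tested. The share of *Cdkn1c* was highest in WT library 3 at 15.6% (exact binomial 95% interval 13.5% to 17.9%) and lowest in *Jag2sm* library 3 at 1.23% (0.566% to 2.33%). Intervals cover counting error only.

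**Figure D1:**
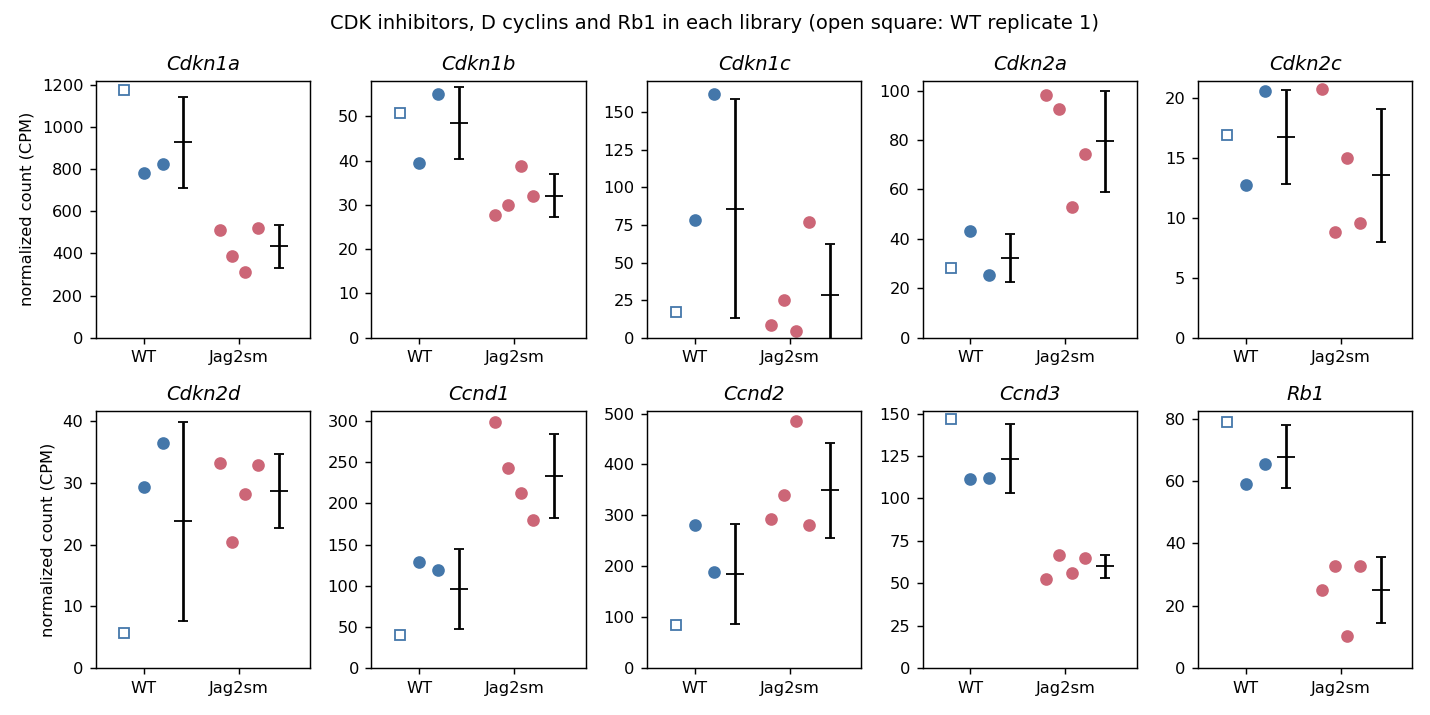
Normalized counts (CPM, linear axes from 0) of the 10 genes in each library, with WT libraries in blue, *Jag2sm* libraries in red, WT library 1 as an open square, and the mean with SD as a black bar (cut off at 0 for *Cdkn1c* in *Jag2sm*). *Cdkn1a*, *Cdkn1b*, *Ccnd3* and *Rb1* are lower in every *Jag2sm* library than in any WT library, *Cdkn2a* and *Ccnd1* higher, and the other 4 genes overlap.

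*Cdkn2a* was the one inhibitor gene of the 10 that rose. It lies at chr4:89192708-89212890 (− strand) and its exons overlap no other annotated gene. Its levels were 28.2, 43.3 and 25.2 CPM in WT, from 5, 68 and 27 reads, and 98.4, 92.3, 52.8 and 74.5 CPM in *Jag2sm* libraries 1 to 4, from 71, 136, 109 and 93 reads. Every *Jag2sm* library lay above every WT library, with *Jag2sm* library 3 nearest to WT. The mean rose from 32.2 ± 9.68 (SD, n = 3) to 79.5 ± 20.5 CPM (SD, n = 4), a 2.33-fold rise (log2 fold change 1.22 ± 0.30 (SE), adjusted p = 0.0368, edgeR). Without WT library 1 the size was similar at 1.16, but the test was not passed (adjusted p = 0.0729, edgeR), nor was it without WT library 3 or *Jag2sm* library 1, 2 or 4 (adjusted p up to 0.198). Since p16 and p19ARF share exons, these counts do not tell the products of the 2 starts shown above apart.

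*Cdkn2b*, the neighbouring gene of p15, is not one of the 10, but showed a like pattern with 11.3, 35.01 and 27.1 CPM in WT and 98.4, 92.3, 33.9 and 78.5 CPM in *Jag2sm* MuSCs. *Jag2sm* library 3 lay below WT library 2, so the groups overlapped, and the change did not pass (log2 fold change 1.39, adjusted p = 0.0698, edgeR). *Cdkn2c*, the gene of p18 at chr4:109517957-109524386 (− strand), had 3 to 31 reads per library and a log2 fold change of -0.32 ± 0.38 (SE; adjusted p = 0.705, edgeR), which was -0.32 without WT library 1 as well. *Cdkn2d*, at chr9:21199700-21202727 (− strand), encodes the INK4 protein p19, which is distinct from p19ARF. It had 1 read in WT library 1 and 24 to 58 in the other 6, and its log2 fold change of -0.01 ± 0.34 (SE; adjusted p = 0.997, edgeR) was -0.21 without WT library 1 and turned to 0.15 when libraries were scaled by size alone.

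The 3 D cyclins did not move together. *Ccnd3*, at chr17:47815767-47910624 (+ strand), was at 147, 111 and 112 CPM in WT and at 52.6, 66.5, 55.7 and 64.9 CPM in *Jag2sm* MuSCs. These groups were well apart, and within each the libraries were close to one another apart from WT library 1. The mean fell from 123 ± 20.2 (SD, n = 3) to 59.9 ± 6.80 CPM (SD, n = 4), with a log2 fold change of -0.99 ± 0.20 (SE; adjusted p = 0.0151, edgeR). It was -0.90 without WT library 1 (adjusted p = 0.0176) and -1.03 with the replicate block, where it did not pass (adjusted p = 0.0621). *Ccnd3* passed in 14 of 16 alternative fits, the most of the 10 genes, and the other miss came without WT library 2. Exons of *Bysl* lie on the opposite strand and overlap those of *Ccnd3*. *Bysl* had 6 to 101 reads per library, and since the strand setting of the counting is not given, reads of the pair cannot be told apart with certainty.

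*Ccnd1*, at chr7:144483668-144493662 (− strand), went the other way, with 7, 203 and 127 reads in WT, or 39.5, 129 and 119 CPM. In *Jag2sm* libraries 1 to 4 it had 216, 359, 439 and 224 reads, or 299, 244, 213 and 179 CPM. All 4 *Jag2sm* libraries were above all 3 WT libraries, and WT library 1 was the lowest by a wide margin. The mean was 95.8 ± 49.0 (SD, n = 3) against 234 ± 50.9 CPM (SD, n = 4), but the log2 fold change of 1.17 ± 0.32 (SE) did not pass (adjusted p = 0.0622, edgeR). It was 0.90 without WT library 1 (adjusted p = 0.0506, edgeR), and DESeq2 called it higher at 1.22 (adjusted p = 0.0124). Exons of *LTO1* overlap those of *Ccnd1* on the opposite strand. *LTO1* had 5, 30 and 13 reads in WT and 8 to 41 in *Jag2sm*, so that in WT library 1 it had nearly as many as *Ccnd1*, and reads of this pair cannot be told apart with certainty either. *Ccnd2*, at chr6:127102125-127129156 (− strand), was at 84.6, 281 and 189 CPM in WT and at 294, 339, 485 and 280 CPM in *Jag2sm* MuSCs. *Jag2sm* library 4 lay just below WT library 2, and the log2 fold change of 0.86 ± 0.35 (SE) did not pass (adjusted p = 0.199, edgeR; 0.57 without WT library 1, adjusted p = 0.284).

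Within the D cyclin family, which does not depend on how libraries are scaled, *Ccnd3* gave 54.2% of counts in WT library 1 (26 of 48 reads, exact binomial 95% interval 39.2% to 68.6%). It gave 21.4% (18.6% to 24.3%) and 26.7% (22.7% to 31.1%) in WT libraries 2 and 3. In *Jag2sm* libraries 1 to 4 its share was 8.15%, 10.2%, 7.40% and 12.4%, with no interval reaching above 15.1%. The *Ccnd3* share was thus lower in every *Jag2sm* library than in any WT library, with a mean of 9.54% ± 2.23 (SD, n = 4) against 34.1% ± 17.6 (SD, n = 3), or 24.0% ± 3.79 (SD, n = 2) without WT library 1. This share was looked at after its values were seen and has no test. The *Ccnd1* share was 14.6%, 24.8% and 28.3% in WT and 46.4%, 37.5%, 28.2% and 34.2% in *Jag2sm* MuSCs. The lowest *Jag2sm* value met the highest WT value, and the difference of 14.0 points did not pass an exact two-sided permutation test (p = 0.0857, adjusted p = 0.129 over 3 such tests; 10.04 points without WT library 1). *Ccnd2* was the largest part in 5 of 7 libraries, *Ccnd3* in WT library 1 and *Ccnd1*, by 4 reads, in *Jag2sm* library 1.

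**Figure D2:**
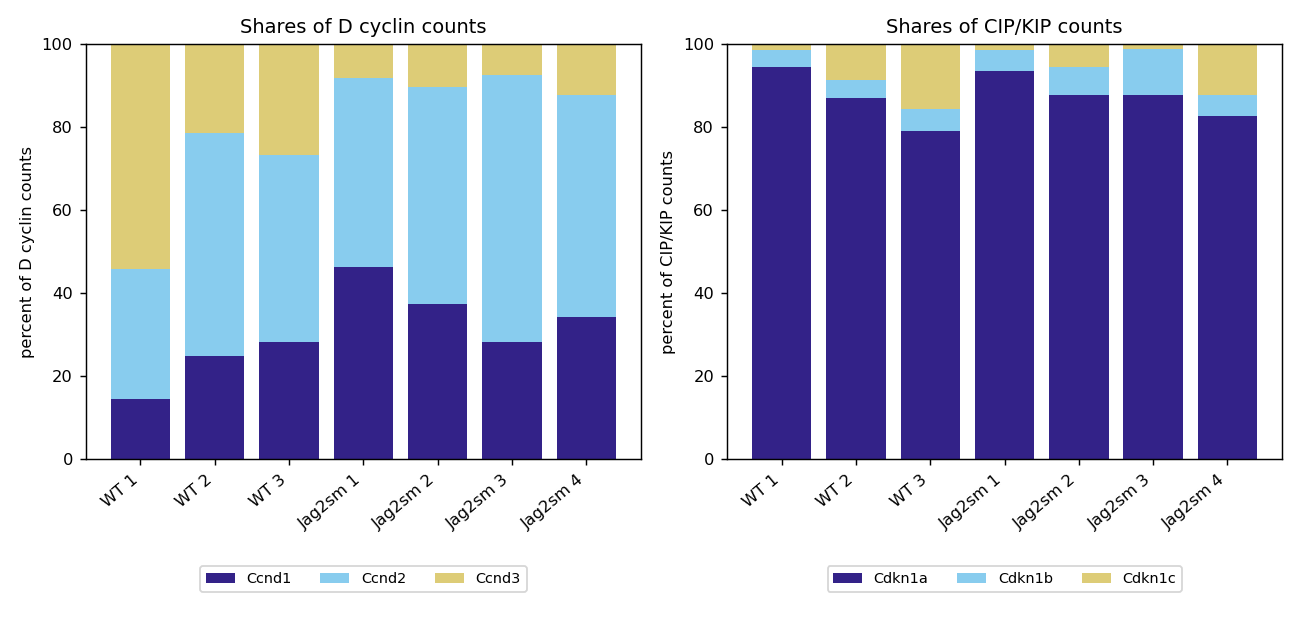
Share of each gene in the D cyclin counts (left) and CIP/KIP counts (right) of each library, in percent of the reads of the 3 family members. The *Ccnd3* part is 21.4% to 54.2% in WT and 7.40% to 12.4% in *Jag2sm*, whereas *Cdkn1a* is 79.1% to 94.5% of CIP/KIP counts in WT and 82.7% to 93.4% in *Jag2sm*.

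For 1 read of *Ccnd1*, there were 29.7, 6.05 and 6.95 reads of *Cdkn1a* in WT libraries 1, 2 and 3. In *Jag2sm* libraries 1 to 4 there were 1.70, 1.60, 1.46 and 2.91. The groups did not overlap, and the mean of the log2 ratios was lower by 2.55 in *Jag2sm* (0.88 against 3.43), or by 1.82 without WT library 1. The exact two-sided permutation test gave p = 0.0286, the smallest that 35 splits allow, and 0.0857 after adjustment over the 3 tests. Every *Jag2sm* library was below every WT library for *Cdkn1a* and above every WT library for *Ccnd1*. The ratio therefore had to separate the groups, and its test adds nothing to the separations of the single genes.

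*Rb1*, the gene of the pocket protein that holds E2F factors in check, lies at chr14:73421113-73563507 (− strand). It was at 79.0, 59.2 and 65.4 CPM in WT and at 24.9, 32.6, 10.2 and 32.8 CPM in *Jag2sm* MuSCs, where library 3 had only 21 reads at the greatest depth of all. All *Jag2sm* libraries lay below all WT libraries. The mean fell from 67.9 ± 10.1 (SD, n = 3) to 25.1 ± 10.6 CPM (SD, n = 4), a log2 fold change of -1.40 ± 0.36 (SE; adjusted p = 0.0473, edgeR). Without WT library 1 it was -1.34 and did not pass (adjusted p = 0.0845, edgeR), and with the replicate block it passed at -1.68 (adjusted p = 0.0364). The call was also lost without WT library 2 or 3 or *Jag2sm* library 1 or 2 (adjusted p = 0.0765 to 0.145), with DESeq2's size factors in edgeR (0.0516), with library size alone (0.0638) and with at least 10 counts in every library (0.0517). Exons of *Lpar6*, which had at most 5 reads, and of *Rcbtb2*, which had 4 to 37, overlap those of *Rb1* on the opposite strand. *Rcbtb2* had more reads than *Rb1* in *Jag2sm* library 1 (23 against 18) and *Jag2sm* library 3 (36 against 21), and fewer in the rest. With the strand setting not given, reads of *Rb1* and *Rcbtb2* cannot be told apart with certainty. Of the other pocket protein genes, *Rbl1* (p107) had a log2 fold change of 0.45 (adjusted p = 0.445, edgeR), and *Rbl2* (p130), at 13 reads in each genotype, was too low to test.

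**Figure D3:**
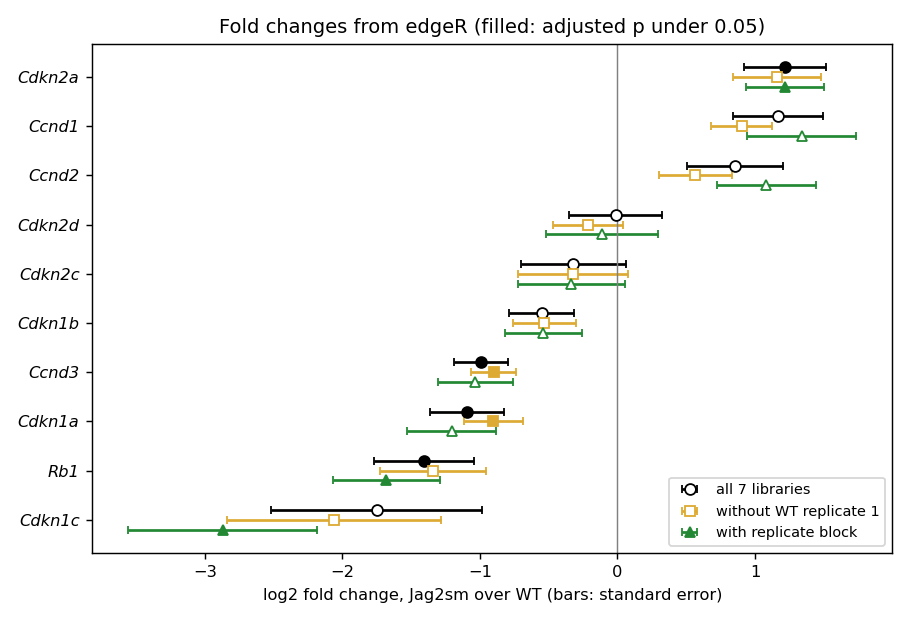
Log2 fold change of *Jag2sm* over WT with its standard error for the 10 genes, from edgeR, with all 7 libraries (black), without WT library 1 (yellow) and with the batch number as a block (green). Filled symbols have an adjusted p under 0.05: 4 with all libraries, 2 without WT library 1 and 3 with the block, and no gene changes the side of 0 among these 3 fits.

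Counted gene by gene, 2 of the 10 genes were higher in every *Jag2sm* library than in any WT library, as were 10.2% of all genes tested, and 4 were lower in every one, as were 12.2%. The median log2 fold change of the 10 was -0.44, against 0.05 over all genes tested. The 3 comparisons within a batch all went one way for 8 of the 10 genes, the exceptions being *Cdkn2c* and *Cdkn2d*, as they did for 44.3% of all genes tested. Scaling by library size alone moved the median of all genes by 0.16 on the log2 scale and left 3 of the 10 genes called (*Cdkn2a* and *Ccnd1* higher, *Ccnd3* lower). Under that scaling, 241 of all 9489 genes tested were called higher and 384 lower.

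Levels between genes were first compared as CPM per kilobase of the annotated principal transcript. In direct cDNA sequencing a read can stand for a whole molecule, so this scale lowers long transcripts such as *Ccnd2* (6330 bases) against short ones such as *Cdkn2a* (852 bases), and the order by CPM is given after it. In WT MuSCs *Cdkn1a* stood first at 482 ± 112 (SD, n = 3) CPM per kilobase, clear of *Ccnd3* at 61.1 ± 10.01. *Cdkn1c*, *Cdkn2a*, *Ccnd2*, *Ccnd1*, *Cdkn2d*, *Rb1* and *Cdkn1b* followed in that order, each with an SD range that overlapped that of the gene before it, and *Cdkn2c* was last and apart from *Cdkn1b* at 6.21 ± 1.45. In *Jag2sm* MuSCs *Cdkn1a* was again first at 225 ± 52.4 (SD, n = 4), then *Cdkn2a* at 93.3 ± 24.0, *Ccnd1* at 61.6 ± 13.4 and *Ccnd2* at 55.2 ± 14.8, neighbours that overlapped one another. *Ccnd3*, second in WT, came after these 4 at 29.7 ± 3.37 CPM per kilobase and apart from both its neighbours, while *Rb1*, at 5.01 ± 2.12, was level with *Cdkn2c* at 5.03 ± 2.06. By CPM without a length, *Cdkn1a* was again first and *Cdkn2c* last in both genotypes. *Ccnd2* was then second in each, at 185 ± 98.1 CPM (SD, n = 3) in WT, above *Ccnd3* at 123 and *Ccnd1* at 95.8, and at 350 ± 93.6 CPM (SD, n = 4) in *Jag2sm*, above *Ccnd1* at 234, *Cdkn2a* at 79.5 and *Ccnd3* at 59.9. The place of *Ccnd2* thus depends on the scale, and that of *Ccnd3* above *Ccnd1* by CPM in WT rests on WT library 1, without which the means were 112 and 124 CPM. Without it *Cdkn1c*, with the shorter transcript (1930 against 2018 bases), was also above *Ccnd3* in WT (120 against 112 CPM). The second place of *Ccnd3* per kilobase in WT thus rests on WT library 1 too.

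By the smallest root mean square difference of centred log2 CPM over the 7 libraries, the genes most like *Cdkn1a* were *Bag1* (0.1003), *Bod1* (0.122) and *Aopep* (0.129), where the median of all tested genes was 0.759. *Bag1* fell with a log2 fold change of -1.17 (adjusted p = 0.0223, edgeR; not called without WT library 3 or *Jag2sm* library 2), whereas *Bod1* at -0.93 and *Aopep* at -0.88 did not pass. Nearest to *Ccnd1* were *Tagln2* (0.0892), *Htr1b* (0.168) and *Sh2b3* (0.172), where the median was 0.914, and none of the 3 passed. *Htr1b* had no read in WT library 1. Genes picked for a like profile over these libraries have a like fold change by that choice, so their tests are no separate support.

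Among 33 partners and regulators of the G1 switch, 31 were tested, 2 rose, 1 fell and 6 had an unadjusted p under 0.05 (over all genes tested 1.42%, 4.84% and 19.7%), with a median log2 fold change of 0.06. *Ccng1*, the p53 target cyclin G1, rose from 164, 290 and 243 CPM in WT to 531, 452, 489 and 384 CPM (log2 fold change 0.97, adjusted p = 0.0451, edgeR). *Myc*, which drives cell growth and division, rose from 73.4, 67.5 and 52.3 to 105, 160, 139 and 111 CPM (1.04, adjusted p = 0.027, edgeR). *Cdk2*, the kinase of the cyclin E and A complexes that CIP/KIP proteins block, fell from 107, 89.8 and 86.9 to 42.9, 39.4, 36.8 and 61.7 CPM (-1.03, adjusted p = 0.0245, edgeR). None of the 3 overlapped between genotypes, as was so for 10.2% of all genes on the higher and 12.2% on the lower side, and all 3 passed without WT library 1. With other libraries left out, *Ccng1* lost its call in all 6 cases (adjusted p = 0.0545 to 0.171), *Cdk2* without WT library 2 or 3 or *Jag2sm* library 1 or 2 (0.0585 to 0.0895), and *Myc* without WT library 2 or 3 or *Jag2sm* library 2 (0.0871 to 0.165). With the replicate block only *Cdk2* passed (adjusted p = 0.0216, against 0.105 for *Ccng1* and 0.0602 for *Myc*). Thinning to the smallest library ended the calls of *Cdk2* (log2 fold change -1.12, adjusted p = 0.0567, edgeR) and *Myc* (1.12, adjusted p = 0.133, edgeR). The kinases of the D cyclins, *Cdk4* at 0.13 (adjusted p = 0.785) and *Cdk6* at 0.94 (adjusted p = 0.0739), did not pass in edgeR.

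None of the 16 tested genes of the E2F, DP and DREAM complexes, the factors that RB1 family proteins act on, was called by edgeR, and 3 of them had an unadjusted p under 0.05, as did 19.7% of all genes tested. Nor was any of 23 tested E2F target genes (3 at an unadjusted p under 0.05; 21 with a positive log2 fold change, median 0.35) or of 18 G2/M genes (1 at an unadjusted p under 0.05; all 18 positive, median 0.58), where 54.0% of all genes were positive. Without WT library 1 the median was 0.24 for 24 E2F targets, 18 of them positive, and 0.34 for the G2/M genes, 16 of 18 positive, against 52.6% of all genes. With the replicate block, 5 of 18 G2/M genes (median 0.74) and 2 of 23 E2F targets (median 0.48) had an unadjusted p under 0.05. Of all 9489 genes tested, 1675 did so in that fit. The replicative genes *Rrm2*, *Rrm1* and *Mcm4* had log2 fold changes of 0.20, 0.05 and 0.26 with all libraries, and -0.13, -0.09 and -0.01 without WT library 1. *Top2a*, the topoisomerase of dividing cells, was at 33.9, 298 and 346 CPM in WT and at 227, 317, 389 and 304 CPM in *Jag2sm*, so that WT library 1 alone was low. The proliferation marker *Mki67* had a log2 fold change of 0.63 (adjusted p = 0.297, edgeR; 0.39 without WT library 1) and *Ube2c*, an enzyme of the mitotic ubiquitin machinery, of 0.66 (adjusted p = 0.495; 0.25 without WT library 1).

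Of 20 tested p53 pathway genes, 2 rose and 2 fell, 14 had an unadjusted p under 0.05 (over all genes tested 1.42%, 4.84% and 19.7%), and their median log2 fold change was 0.51 (0.46 without WT library 1). Besides *Ccng1*, *Pidd1*, a p53-induced death domain gene, rose (log2 fold change 1.57, adjusted p = 0.034, edgeR). *Pidd1* had 2 to 13 reads per WT library and 18 to 38 per *Jag2sm* library, which are not scaled for the unequal depth of the libraries. *Gadd45a*, a growth arrest and stress gene, fell from 288, 308 and 367 CPM to 91.4, 93.7, 101 and 111 CPM (-1.70, adjusted p = 0.00224). The apoptosis gene *Pmaip1* fell too (-1.61, adjusted p = 0.019). *Cdkn1a* thus fell beside *Gadd45a* and *Pmaip1* while *Ccng1* and *Pidd1* rose, and with the replicate block only *Gadd45a* passed (adjusted p = 0.00617; 0.074 for *Pidd1* and 0.0606 for *Pmaip1*). *Gadd45a* passed whichever library was left out, *Pmaip1* in all such fits but that without WT library 3, and *Pidd1* only without WT library 1 or *Jag2sm* library 3. The *Pidd1* call was also lost with limma-voom (log2 fold change 1.47, adjusted p = 0.0566). Of 15 tested quiescence and growth arrest genes none was called by edgeR (1 at an unadjusted p under 0.05, median -0.18). An unadjusted p under 0.05 was reached by 4 of 16 without WT library 1 and 5 of 15 with the replicate block. Over all genes tested, 2008 of 9938 and 1675 of 9489 reached it in these fits. *Egr1*, *Gas6* and *Tob1*, the most abundant of the quiescence and growth arrest genes, had log2 fold changes of -0.15, -0.58 and -0.50. That of *Egr1* was 0.38 without WT library 1.

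Markers of differentiating muscle were lower in *Jag2sm* MuSCs, as were *Cdkn1a*, *Ccnd3* and *Rb1*. Of 12, 11 were tested and all 11 fell (10 without WT library 1 and 10 with the replicate block, where 4.84%, 4.69% and 4.72% of all genes fell), with a median log2 fold change of -3.21. Their summed level was 42414, 22487 and 25160 CPM in WT libraries 1, 2 and 3 and 4574, 2825, 844 and 5847 CPM in *Jag2sm* libraries 1 to 4. WT library 1 was thus the highest and *Jag2sm* library 3 the lowest. The most abundant of them, the actin gene *Acta1*, was at 8663 ± 4322 CPM (SD, n = 3) in WT and fell with a log2 fold change of -3.28 (adjusted p = 0.0132, edgeR; 0.0565 without *Jag2sm* library 2), and no marker of the list was at 0 in all libraries. Ranked by that sum, the 7 libraries stood in the same order as by *Cdkn1a*, which held for 72 genes, or 0.759% of all tested, and for no other of the 10. This order was noticed after the values were seen. The part of differentiating cells in the *Cdkn1a*, *Cdkn1c*, *Ccnd3* and *Rb1* levels was not tested, and in these bulk samples fewer cells of a type and less RNA per cell cannot be told apart.

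Of the 10 myoblast markers 8 were tested and *Des*, the most abundant, fell (log2 fold change -1.63, adjusted p = 0.0244, edgeR), though no longer with the replicate block or without *Jag2sm* library 1 or 2. *Pax7*, *Myf5* and *Myod1* had log2 fold changes of 0.80, 0.60 and -0.19, none of which passed. No endothelial or immune marker had enough counts to be tested: the endothelial sum was at most 13.9 CPM, with *Tek* the most abundant and *Kdr*, *Esam* and *Tie1* at 0 in all libraries, and the immune sum at most 5.60 CPM, with *Cd68* the most abundant and *Ptprc*, *Adgre1*, *Lyz2* and *Cd3e* at 0. Fibroblast markers summed to 62.1, 276 and 140 CPM in WT and 212, 365, 239 and 316 CPM in *Jag2sm*, mostly *Col3a1*, while *Lum* and *Dpt* were at 0 and neither of the 2 tested was called. Mural markers summed to 58.8 to 88.3 CPM in 6 libraries and to 673 CPM in *Jag2sm* library 1, where *Rgs5* had 456 reads, and *Abcc9* fell. Of the glial and tenocyte markers the tendon gene *Scx* was the only one tested and fell from 113, 118 and 115 CPM to 47.1, 36.7, 28.6 and 72.1 CPM (adjusted p = 0.0223, edgeR; not called without WT library 2 or 3 or *Jag2sm* library 1 or 2). *Jag2sm* library 1, with the high *Rgs5*, also had the highest *Ccnd1* and *Cdkn2a* levels. Without it *Cdkn2a* was no longer called and *Ccnd3* was the only one of the 10 genes that was, and the part of mural cells was not tested.

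**Figure D4:**
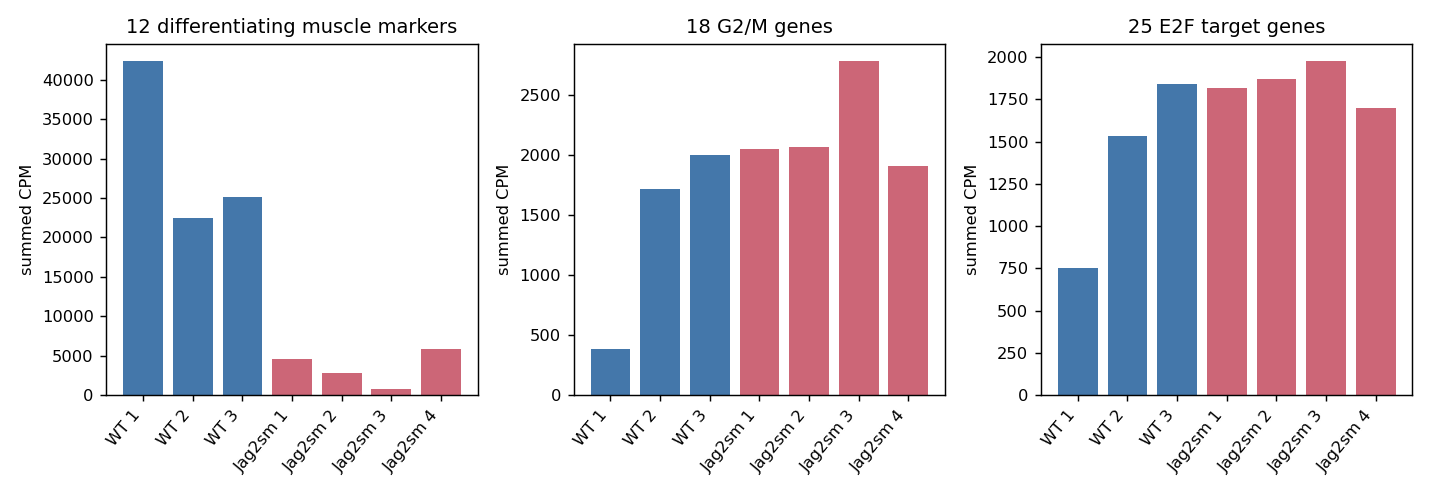
Summed CPM in each library (linear axes from 0) of 12 differentiating muscle markers, 18 G2/M genes and 25 E2F target genes, with WT in blue and *Jag2sm* in red. The muscle sums of 22487 to 42414 in WT lie above the 844 to 5847 in *Jag2sm*, while WT library 1 is the lowest for G2/M genes (384) and E2F targets (750) where the other 6 libraries hold 1719 to 2789 and 1534 to 1978.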

How the data were processed

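The authors called bases with dorado, mapped long direct cDNA reads with minimap2 2.17 (GRCm39), obtained gene counts from HTSeq, and deposited them as raw counts for 56748 genes in each of 7 libraries; the annotation, the strand setting and the HTSeq version are not given in the sources used here. Their R 4.3.0 and DESeq2 table of fold changes and p-values was not used. The 5 HTSeq summary rows stayed out of library sizes; reads on no gene were 20.8% to 45.1% of aligned reads. Of the gene IDs, 56017 were found in GENCODE M39, which gave symbols, locations and transcript lengths.

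Counts were tested with edgeR 4.0.16 in R 4.3.3 (filterByExpr with a minimum count of 10 and a minimum total of 15, TMM, glmQLFit and glmQLFTest, no covariates). A call needs p under 0.05 after Benjamini-Hochberg adjustment over 9489 genes. The SE of an edgeR log2 fold change is its absolute value divided by the square root of the quasi-likelihood F statistic. CPM use TMM-scaled library sizes, and log2 CPM a prior count of 2. Shares and the ratio were compared by exact permutation over 35 splits, with exact binomial 95% intervals (SciPy 1.17.1). Alternatives were DESeq2 1.42.0, limma-voom (limma 3.58.1), other size factors, other filters, a robust fit, thinning, the replicate block and each library left out. The labels' batch number pairs WT and Jag2sm libraries 1, 2 and 3; deviations from the genotype means correlated at 0.0742, 0.0143 and 0.0541 across genes within the pairs. On counts simulated for 9215 genes of this comparison, edgeR recovered 29.8% of 2-fold and 83% of 4-fold changes, and 4.92% of its calls were false.

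The 10 genes and all lists were chosen with earlier results of these data known. Named were the 10 genes, called genes of the partner, E2F and p53 lists, called or otherwise the 3 most abundant genes of the E2F target, G2/M and quiescence lists, the most abundant and absent markers, and the 3 profiles nearest to *Cdkn1a* and *Ccnd1*. Genes outside this rule (*Cdkn2b*, *Cdk4*, *Cdk6*, *Rbl1*, *Rbl2*, *Pax7*, *Myf5*, *Myod1*, *Abcc9*, *Scx*, *Jag2* and genes overlapping the 10) were added after their values were seen.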

Additional observations from a re-analysis of the deposited data

Results flagged for a closer look

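Of 28 sets of 4 *Jag2sm* values screened for a single library far from the rest, 2 stood out, and chance alone would mark about 1 in 20. *Pidd1* was at 14.5 CPM in *Jag2sm* library 3, with a gap of 0.924 of the range to the nearest of the other 3, which lay at 24.9 to 25.8 CPM. *Rrm1* was at 223 CPM in the same library, with a gap of 0.845 of the range, against 175 to 183 CPM in the other 3. None of the 10 genes of the G1 switch stood out in this way.

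Unaligned reads made up 50.8%, 46.7% and 46.0% of all reads in *Jag2sm* libraries 1, 2 and 4, against 2.44% to 3.24% in the 3 WT libraries and 3.07% in *Jag2sm* library 3. Reads that did not align enter neither the counts nor the library sizes used here. The part of unaligned reads in the levels reported was not tested.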

How the results depend on the processing

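With all libraries, 594 of 9489 genes were called (135 higher and 459 lower). The number was 1248 of 25189 without a filter on low counts and 274 of 2981 with at least 10 counts in every library. After thinning to the smallest library it was 248 of 3512. Leaving out 1 library gave 251 of 9155 (without *Jag2sm* library 2) to 616 of 9224 (without *Jag2sm* library 3). It gave 343 of 9840 without WT library 2 and 341 of 10026 without WT library 3. Of the calls, 22.7% were higher with TMM and 38.6% with library size alone. With 1 library left out, that share ran from 5.87% (20 genes, without WT library 3) to 35.7% (220 genes, without *Jag2sm* library 3). It was 9.62% (33 genes) without WT library 2. Of the 10 genes, 4 were called with all libraries, 1 (*Ccnd3*) of the 4 left with at least 10 counts in every library, and 1 to 3 with a library left out: 2 without WT library 1, 1 without WT library 2 (*Cdkn2a*), and 1 (*Ccnd3*) without WT library 3, *Jag2sm* library 1 or *Jag2sm* library 2. The replicate block left 565 genes and 3 of the 10 called; it ended the calls of *Cdkn1a*, *Ccnd3*, *Ccng1*, *Myc*, *Pidd1*, *Pmaip1* and *Des* as given above, made that of *Cdkn1c*, and changed no other call among the 10 genes. Without a filter, 6 of the 10 genes were called. *Cdkn1c* (adjusted p = 4.24e-08, edgeR) and *Ccnd1* (log2 fold change 1.18, adjusted p = 0.00206, edgeR) then passed as well. The SE of the *Cdkn1c* change was 0.28 in that fit, against 0.77 with the filter. Its levels vary widely within each genotype, as given above, and the p-value without a filter does not measure that spread.

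The log2 fold change of *Cdkn2d* (-0.01) turned to 0.0015 with DESeq2's size factors, 0.15 with library size alone and 0.073 with DESeq2, and ranged from -0.21 to 0.26 with 1 library left out, turning without WT library 2 or 3 or *Jag2sm* library 2. That of *Egr1* turned to 0.056 with at least 10 counts in every library and ranged from -0.60 to 0.38, turning without WT library 1 or *Jag2sm* library 3. Left-out ranges were -0.014 to 0.47 for *Mcm4*, -0.094 to 0.15 for *Rrm1*, -0.13 to 0.51 for *Rrm2* and -0.057 to 0.74 for *Top2a*, and all 4 turned without WT library 1, *Rrm1* also without *Jag2sm* library 3. The difference in the *Cdkn1a* share of CIP/KIP counts ranged from -2.84 (without WT library 3) to 4.87 points (without WT library 1), and was -0.810 without *Jag2sm* library 1. The cause of these changes was not tested. With a library left out, the permutation test cannot go below 0.0667 (2 WT libraries) or 0.1 (3 *Jag2sm* libraries), so those shares are values with no test.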

Other observations

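*Cdkn2a* and *Cdkn2b*, which lie next to each other and share no annotated exon, had the same read counts in *Jag2sm* libraries 1 and 2 (71 and 136 each), but not in *Jag2sm* libraries 3 and 4 (109 and 93 reads of *Cdkn2a*, 70 and 98 of *Cdkn2b*) or in WT libraries 1, 2 and 3 (5, 68 and 27 reads of *Cdkn2a*, 2, 55 and 29 of *Cdkn2b*). This was noticed after the values were seen, and its cause was not tested.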
